A study of Mus musculus with 35 samples.

Results

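H3K4me3, trimethylation of lysine 4 of histone H3, was compared between wild-type mouse retinae at postnatal day 21 (P21) and P14. The comparison used the peak lists of 4 ChIP-Seq libraries, P14 replicates 2 and 3 and P21 replicates 1 and 2, out of 8 H3K4me3 lists and 27 lists in the series. Overlapping peaks of these lists were merged into 23896 regions. Over all 8 H3K4me3 lists the same merging gave 27184 regions, and over all H3K4me3, H3K27Ac and BRG1-FLAG lists 87587. The height of a region was the largest fold enrichment over background that a library's list gave there, or 0 where it held no peak. The width was the length that the library's peaks covered. Of the 23896 regions, 15908 (66.6%) had a peak in every one of the 4 lists, and these are called shared regions here.

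The series followed histone marks and Brg1, the ATPase of the SWI/SNF chromatin remodelling complex, in the developing retina. The other samples used here were wild-type retinae with H3K4me3 at P0 (2 libraries) and P12 (1 library), wild-type retinae with H3K27Ac and H3K27me3 at P0, P14 and P21 (2 libraries each), and 1 P0 library of BRG-FLAG retinae, in which a FLAG tag is carried by the animals' own Brg1 gene. All are whole retinae, and the labels do not say whether replicates came from separate animals or litters.

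H3K4me3 marks the promoters of genes that are transcribed or poised for transcription, and it tends to spread wider at genes that are strongly used in a cell type. H3K27Ac marks active promoters and enhancers. H3K27me3 is laid down by Polycomb complexes at silenced genes, and promoters that carry it together with H3K4me3 are called bivalent. Between P14 and P21 the mouse retina, after its last divisions and about the time the eyes open, completes photoreceptor outer segments and synapses. In whole tissue, a change in the share of cells with a mark and a change of the mark within cells cannot be told apart. The coordinates are those of mm9. No annotation of that build was used, so regions are given by position, no gene was assigned to them, and marker genes of the retina were not checked.

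P21 replicate 1 stood apart from the other 3 libraries. It had 24124 peaks over 35.1 Mb, whereas the others had 18534 to 19829 peaks over at most 27.4 Mb. Its median fold enrichment over shared regions was 50.05, compared with 28.3 and 28.8 in P14 replicates 2 and 3 and 19.2 in P21 replicate 2. The median width of a shared region was 1782 bp in P21 replicate 1 and 1378.5 to 1495 bp in the others. Heights and widths were therefore divided by each library's median over shared regions and compared on a log2 scale, and the results are given for each library pair where 1 library could set them.

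Most H3K4me3 peaks were held in common by the stages. Of the peaks of P14 replicates 2 and 3, 98.5% and 98.1% overlapped a peak of P21 replicate 1, and 88.9% and 87.1% a peak of P21 replicate 2. The replicates overlapped to a like degree, with 95.4% of the P14 replicate 2 peaks found in P14 replicate 3 and 99.4% of the P21 replicate 2 peaks found in P21 replicate 1. In contrast, 71.0% of the P21 replicate 1 peaks were found in P21 replicate 2. At 4792 regions (20.1% of all) P21 replicate 1 alone had a peak, and at 1054 more it shared the region with both P14 libraries and not with P21 replicate 2. The regions of P21 replicate 1 alone were weak. Their median fold enrichment was 4.38 and their median width 338 bp.

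Libraries of different stages differed over the shared regions about as much as replicates did. The log2 ratio of scaled heights had an SD across regions of 0.57 between the P14 replicates and 0.56 between the P21 replicates. It was 0.58 to 0.61 in the 4 pairs of a P14 and a P21 library. The scaled heights of 7.98% and 8.20% of regions differed by 2-fold or more within P14 and within P21, and those of 8.55% to 10.5% did so between the stages. For width the SD was 0.24 between the P14 replicates, 0.36 between the P21 replicates and 0.31 to 0.36 between the stages. The height difference of one pair of libraries was weakly correlated with that of the pair sharing no library with it (Pearson's r = 0.11 and 0.08 across 15908 regions). In height, P0 was farther away and P12 was not. Over the 15060 merged regions with a peak in all 7 wild-type lists, the SD of the height ratio was 0.74 to 0.84 between P0 and P21, compared with 0.57 to 0.61 between P14 and P21. It was 0.60 between P12 and each P21 library, and 0.55 and 0.52 between P12 and P14 replicates 2 and 3. The SD of the width ratio was 0.27 and 0.38 between P12 and P21 replicates 1 and 2. Between P14 and P21 it was 0.26 to 0.30, so in width P12 was farther from P21 replicate 2.

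Per region, the P21 minus P14 difference of mean log2 scaled height had a median of -0.06, with an interquartile range of -0.34 to 0.22. It reached 1 log2 unit upward at 100 regions and downward at 378. The limma fit with Benjamini-Hochberg adjustment called 2 of the 15908 regions lower at P21 (0.0126% of those tested) and 0 higher (0%). At an unadjusted p under 0.05, 343 regions were higher and 897 were lower. After quantile normalisation these were 588 and 592. The standard error was 0.41 log2 units for every region, because the fit moved all regions to a common spread. For width, limma called 0 regions in either direction (0%), with 488 wider and 537 narrower at an unadjusted p under 0.05. With a spread that follows the mean and is robust to outlying regions, limma called 17 wider and 1 narrower. The height of both P21 libraries was above that of both P14 libraries at 2222 regions (14% of the shared regions) and below it at 3363 (21.1%). By the same reading 2489 regions (15.6%) were wider and 3386 (21.3%) narrower. With 2 libraries a stage, such a separation also arises at regions where the stages do not differ. These are therefore not counts of changed regions.

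**Figure D1:**
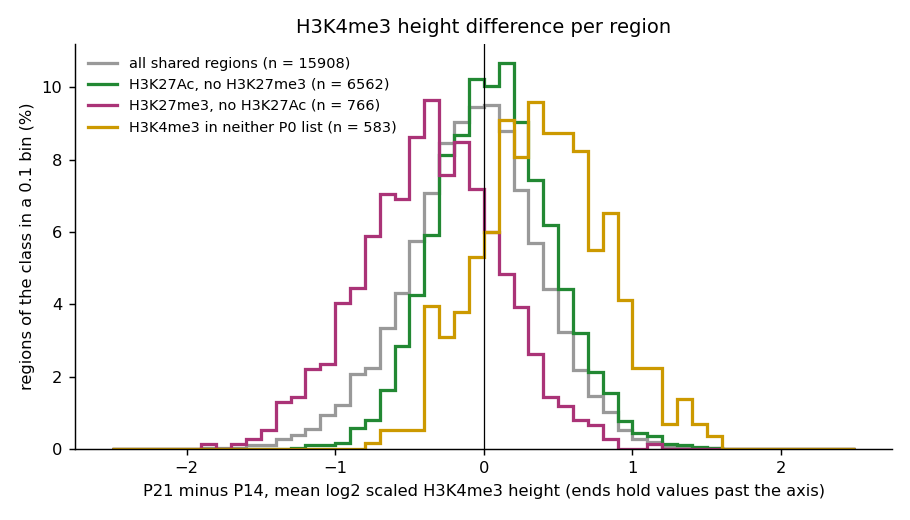
Percentage of regions in each 0.1 bin of the P21 minus P14 difference in mean log2 scaled H3K4me3 height, for all 15908 shared regions and for 3 classes of them. The 766 regions with H3K27me3 and no H3K27Ac lie to the left of all shared regions (median -0.35), and the 583 with no H3K4me3 peak at P0 lie to the right (median 0.39).

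Both called regions lost H3K4me3 height at P21. The first was chr1:142141968-142143142. Its fold enrichment was 23.3 and 17.8 in P14 replicates 2 and 3 and 8.40 and 4.06 in P21 replicates 1 and 2 (log2 difference -1.92, SE 0.41, adjusted p = 0.0415, limma). The libraries of the stages did not overlap there, while the widths of 1022 and 1079 bp at P14 and 1163 and 949 bp at P21 did. It carried neither H3K27Ac nor H3K27me3 in both libraries of either stage. Each mark was there in 1 of its 2 P14 libraries and in no P21 library. At P0 its fold enrichment was 18.1 and 24.6, and at P12 it was 25.04. The second was chr2:23089702-23090323, with a fold enrichment of 19.9 and 16.2 at P14 and of 7.37 and 3.96 at P21 (log2 difference -1.85, SE 0.41, adjusted p = 0.0466, limma). This region carried H3K27me3 in both libraries of each stage. Neither call was made in any fit that left out a library, nor without scaling, nor after quantile normalisation.

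The next 3 falls in order of p were not called. The region chr4:99323550-99324870 had a fold enrichment of 13.0 and 11.03 at P14 and 6.56 and 2.11 at P21 (adjusted p = 0.0524, limma). At chr2:165420247-165420982 the values were 15.6 and 13.7 at P14 and 3.98 and 5.54 at P21. At chr1:14496467-14497230 they were 14.3 and 10.9 at P14 and 4.11 and 3.98 at P21. All 3 carried H3K27me3 in both libraries of both stages, and H3K27Ac in both libraries of neither. The first of them covered 2370 and 2565 bp at P0, 2403 bp at P12, 1267 and 1292 bp at P14, and 598 and 663 bp at P21.

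The 5 highest-ranked rises were not called either, with adjusted p from 0.0894 to 0.171 (limma). The foremost, chr2:32278435-32281170, had a fold enrichment of 3.41 and 4.32 at P14 and 19.6 and 8.96 at P21 (log2 difference 1.67, SE 0.41). Its covered width was 350 and 524 bp at P14 and 2736 and 854 bp at P21. H3K27Ac was there in both P21 libraries and in 1 of the 2 P14 libraries. The widest of the 5, chr9:62213471-62218981, had a fold enrichment of 10.4 and 3.49 at P14 and 35.4 and 10.4 at P21. Its width was 2265 and 2730 bp at P14 and 5511 and 4008 bp at P21, and no library had a peak there at P0. Of the 5 rises, 4 had no peak in either P0 list and the other had a weak one in 1 of them (fold enrichment 4.05). All 5 had a peak at P12 and H3K27Ac in both P21 libraries, and none carried H3K27me3 in both libraries of a stage.

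**Figure D2:**
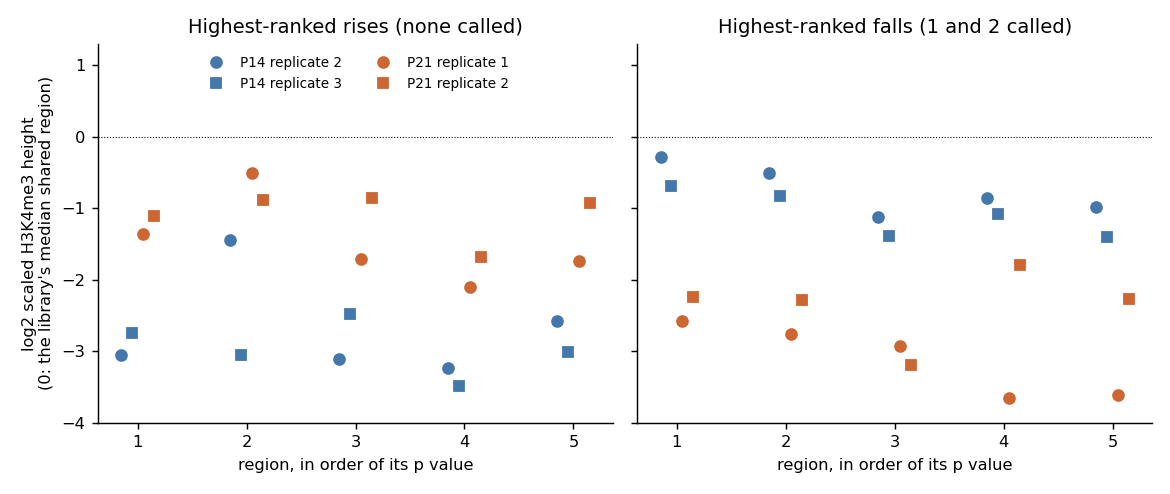
Log2 scaled H3K4me3 height (y axis, 0 is the library's median shared region) of the 5 highest-ranked rises and the 5 highest-ranked falls, in order of p, with 1 point per library. Every region shown lay below the median height in all 4 libraries, and falls 1 and 2 were the only regions called.

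In the width ranking, where nothing was called, the 5 foremost rises were of different kinds, and 3 of them had H3K27Ac in both P21 libraries. At chr5:137841043-137843641 the H3K4me3 peak covered 285 and 313 bp at P14 and 2599 and 1790 bp at P21 (log2 difference 2.71, SE 0.11, adjusted p = 0.0553, limma). There was no peak in either P0 list, and at P12 it covered 704 bp. H3K27Ac was found there in both libraries at P21 and in replicate 2 alone at P14. At chr15:99650811-99652322 the width was 466 and 549 bp at P14 and 1512 and 1079 bp at P21, with no peak at P0 or P12. H3K27Ac was again in both libraries at P21 and in replicate 2 alone at P14. At chr7:38842766-38846904 it was 1579 and 1722 bp at P14 and 4133 and 3415 bp at P21, with H3K27Ac at both stages and peaks in both P0 lists. This width was in 3 peaks in each P14 library and 1 in each P21 library. With the span from first start to last end as width, its log2 difference was 0.22 in place of 1.05. The other 2 rises had no H3K27Ac in both libraries of a stage. At chr16:97832001-97832827, which carried H3K27me3 in both libraries at P0, P14 and P21, the width was 223 and 238 bp at P14 and 676 and 559 bp at P21, and 1125 and 1072 bp at P0. At chr2:60045849-60046718 it was 215 and 259 bp at P14 and 862 and 573 bp at P21, with no peak at P0 or P12. The 5 foremost narrowings all carried H3K27me3 at both stages and H3K27Ac in both libraries of neither. The other 4 were chr4:145334961-145335530, chr14:52947467-52948131, chr14:69792647-69793275 and chr10:51741982-51742803, with widths of 510 to 822 bp at P14 and 263 to 548 bp at P21. The one with the largest difference, chr19:24974037-24974996, covered 1610 and 1759 bp at P0, 932 bp at P12, 620 and 911 bp at P14 and 319 and 240 bp at P21. Its fold enrichment went from 31.6 and 32.1 at P0 to 4.91 and 5.36 at P14 and 3.64 and 2.77 at P21.

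H3K27Ac and H3K27me3 divided the shared regions. A mark was counted where both libraries of a stage had a peak or domain overlapping the region by at least 1 bp. H3K27Ac was found at 55.0% of shared regions at P14 and 46.7% at P21, and H3K27me3 at 23.2% and 24.9%. Counted in either library, H3K27me3 was at 30.9% at P14 and 29.0% at P21, so the order of the stages turned. H3K27Ac replicate 1 was the sparser list at each stage and set these shares (it overlapped 55.0% and 46.8% of shared regions, compared with 91.4% and 84.6% for replicate 2). The tallest H3K4me3 was mostly acetylated. From the lowest to the highest quintile of mean height, H3K27Ac at P21 was found at 18.0%, 22.1%, 47.0%, 69.2% and 77.2% of regions, and H3K27me3 at P21 at 49.2%, 47.1%, 22.4%, 4.62% and 1.29%.

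Regions with H3K27me3 and no H3K27Ac had lower and narrower H3K4me3 at P21 in every library pair. These 766 regions (4.82% of the shared) had H3K27me3 in both libraries at both stages and H3K27Ac in no library of either. Their median fold enrichment was 8.21 and 8.48 in P14 replicates 2 and 3 and 9.42 and 5.17 in P21 replicates 1 and 2. Scaled to each library's shared regions, this was a median log2 height of -1.79 and -1.77 at P14 and -2.41 and -1.89 at P21. The stages did not overlap in this median, but P21 replicate 2 lay much nearer to P14 than P21 replicate 1 did. The median difference was -0.35, with -0.08 to -0.62 in the 4 library pairs. Of these regions 35.8% were lower in both P21 libraries and 4.18% higher, beside 21.1% and 14% of all shared regions. In the lowest quintile of mean height, which held 641 of the 766, 24.9% of all regions were lower and 14.1% higher. The median width difference of the 766 regions was -0.24, with -0.12 to -0.35 in the library pairs. Of them 45.2% were narrower and 4.44% wider in both P21 libraries, beside 21.3% and 15.6% of all shared regions. Between the P21 libraries, replicate 1 minus replicate 2 had a median of -0.56 at these regions, a larger difference than that between the stages. The fall was not limited to regions without H3K27Ac. At all 3962 shared regions with H3K27me3 in both P21 libraries, the median height difference was -0.32 (-0.49 to -0.16 in the library pairs). Their median width difference was -0.13 (-0.15 to -0.11). With 2 libraries a stage, an exact permutation of the libraries could not give a p below 0.333, and none was computed.

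Regions with H3K27Ac and no H3K27me3 differed little between the stages. The 6562 such regions (41.2%), with H3K27Ac in both libraries at both stages and H3K27me3 in none, had a median height difference of 0.06, with -0.0023 to 0.13 in the library pairs, and a median width difference of 0.01. They were tall in every library, with a median fold enrichment of 36.9 and 38.6 at P14 and 68.8 and 26.4 at P21. The 132 regions with both marks in all of their libraries had a median height difference of -0.16 (-0.28 to -0.0033 in the library pairs). The 254 with neither mark had one of -0.08. In the neither-mark class the library pairs had both signs (-0.38 to 0.25), so they gave no common direction. At the other 8194 regions (51.5%) a mark was called in some of its libraries and not in others, and the median height difference was -0.14. The stage difference was alike with and without a Brg1-FLAG peak at P0. The median was -0.05 at the 12659 regions with one and -0.08 at the 3249 without, and in both classes the pairs had both signs.

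Among acetylated regions of low H3K4me3 the difference was larger. In the lowest quintile of height, the 470 regions with H3K27Ac and no H3K27me3 had a median difference of 0.36 (0.22 to 0.45 in the library pairs), while the other regions of that quintile had one of -0.21. In the next quintile the values were 0.16 (0.10 to 0.26) for 532 such regions and -0.27 for the others. In the highest quintile both were -0.02 and -0.03, and the pairs had both signs. Regions with H3K27me3 and no H3K27Ac had a median of -0.34 in the lowest quintile (641 regions) and -0.46 in the next (122 regions). The pairs were below 0 in both. The other regions of these quintiles had medians of -0.08 and -0.19.

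**Figure D3:**
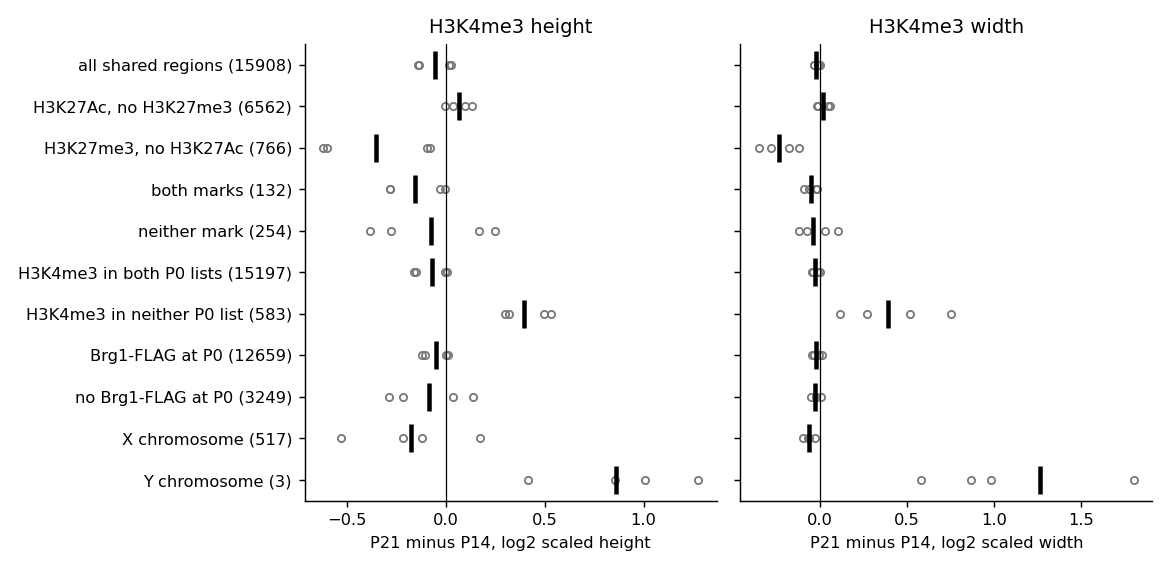
Median P21 minus P14 difference in log2 scaled H3K4me3 height (left) and width (right) for classes of shared regions, with the number of regions in brackets. Black bars are the medians of the difference between stage means and open circles those of the 4 pairs of a P21 and a P14 library, which share libraries and are not independent.

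Shared regions without H3K4me3 at P0 were taller and wider at P21 than at P14 in every library pair. At 583 shared regions (3.66%) neither P0 library had a peak, and 571 of them had one at P12, beside 15893 of all 15908. The P0 libraries take no part in the contrast. The median fold enrichment of these regions was 6.83 and 6.79 in P14 replicates 2 and 3 and 15.5 and 6.56 in P21 replicates 1 and 2. Scaled to each library it was -2.05 and -2.09 at P14 and -1.69 and -1.55 at P21, so that both P21 libraries lay above both P14 libraries. The median height difference was 0.39, with 0.30 to 0.53 in the library pairs, and the median width difference was also 0.39, with 0.11 to 0.75. Both P21 libraries were above both P14 libraries at 292 of these regions (50.1%) and below at 20 (3.43%). For width, 49.4% were wider and 3.09% narrower, beside 15.6% and 21.3% of all shared regions. In width, P21 replicate 1 minus replicate 2 had a median of 0.39 at the 583 regions, as large as the stage difference. Without P21 replicate 1 the median width difference was 0.16, over 624 such regions. At the 15197 regions with a peak in both P0 lists the median height difference was -0.07, and 12.5% were higher and 22.0% lower.

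These regions, called late here, were mostly acetylated and free of H3K27me3. H3K27Ac was present in both P14 libraries at 478 of the 583, and at those the median height difference was 0.44. No H3K27me3 was found in any P14 or P21 library at 546, where it was 0.42. Regions of like height had another difference. Within the lowest quintile of height, the 414 late regions had a median difference of 0.41 (0.28 to 0.56 in the library pairs) and the other 2768 one of -0.21. The 470 regions of that quintile with H3K27Ac and no H3K27me3, given above, had one of 0.36 (0.22 to 0.45). How many regions are in both sets was not counted, so the rise is not particular to absence at P0.

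Set beside the earlier stages, the class with H3K27me3 and no H3K27Ac was lower at each later stage. Over the 737 merged regions of this class with a peak in all 7 wild-type lists, the median log2 scaled height was -0.97 and -0.83 at P0, -1.61 at P12, -1.78 and -1.78 at P14, and -2.43 and -1.94 at P21. The median log2 scaled width was -0.27 and -0.23 at P0, -0.55 at P12, -0.90 and -0.78 at P14, and -0.95 and -1.26 at P21. The medians of the 4 stages did not overlap in either measure. A lower median after P0 was not particular to this class. At the 224 regions with neither mark the median log2 scaled height was -1.53 and -1.05 at P0 and -1.98 at P12. There it was -1.73 and -1.93 at P14 and -2.21 and -1.71 at P21, so the later stages overlapped. The class with H3K27Ac and no H3K27me3 differed less between stages. Its 6034 regions had a median log2 scaled height of 0.31 and 0.23 at P0, 0.36 at P12, 0.37 and 0.41 at P14, and 0.41 and 0.45 at P21. The classes were defined by marks at P14 and P21, and the P0 and P12 heights took no part in that.

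**Figure D4:**
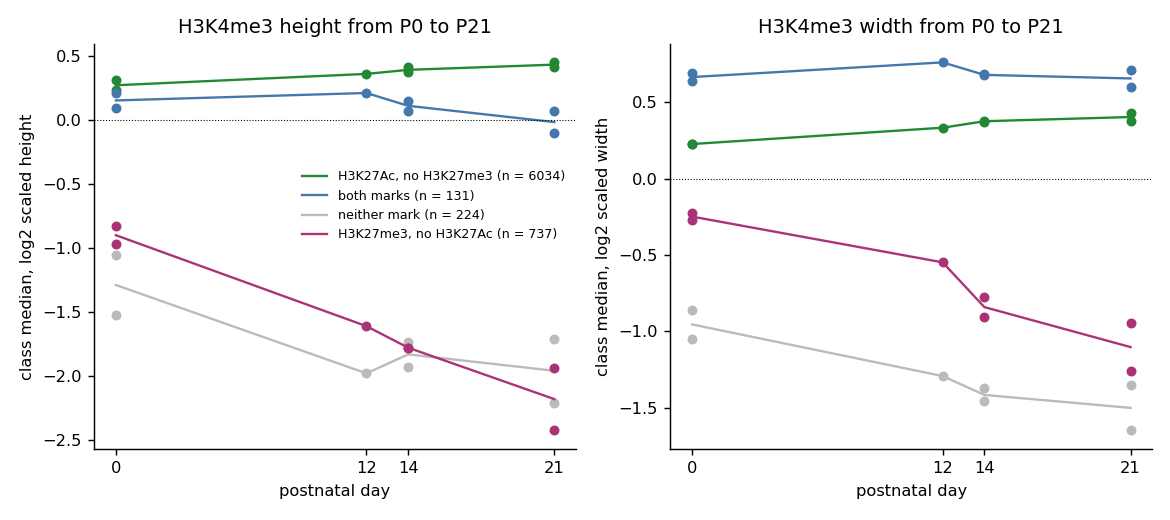
Median log2 scaled H3K4me3 height (left) and width (right) at P0, P12, P14 and P21 for 4 classes of region defined by H3K27Ac and H3K27me3 at P14 and P21, with 1 point per library and lines through stage means. In the class with H3K27me3 and no H3K27Ac the medians went from -0.97 and -0.83 at P0 to -2.43 and -1.94 at P21.

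Few regions had H3K4me3 at 1 stage only. Both P21 libraries and neither P14 library had a peak at 295 regions (1.23%, Wilson 95% bounds 1.102% and 1.38%, for counting error alone). Both P14 libraries and neither P21 library had one at 105 (0.439%, 0.363% to 0.532%). In comparison, 982 regions had a peak in 1 P14 and 1 P21 library. P21 replicate 1 was the P21 library at nearly all of these, with P14 replicate 3 at 581 and with P14 replicate 2 at 381. The counts follow the libraries. Without P21 replicate 1, 1159 regions were found in both P14 libraries and not at P21, and without P21 replicate 2, 5087 were found at P21 and in neither P14 library. With the same number of peaks kept in each list, the counts were 288 and 227.

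The stage-only regions were weak and carried different marks. Those of P21 stood at a median of 6.28 and 4.16 fold in P21 replicates 1 and 2, and those of P14 at 4.74 and 4.51 fold in P14 replicates 2 and 3. H3K27Ac was found at 42.0% (36.5% to 47.7%) of the P21-only regions at P14 and at 60.3% (54.7% to 65.8%) at P21, and at 2.86% and 1.90% of the P14-only regions. Over all 23896 regions the shares were 44.1% and 40.6%. H3K27me3 at P21 was found at 9.15% (6.37% to 13.0%) of the P21-only and 60% (50.4% to 68.9%) of the P14-only regions, beside 24.1% of all. Of the P14-only regions 97.1% had an H3K4me3 peak at P12 and 74.3% in both P0 libraries, and of the P21-only regions 43.7% and 16.9%. Over all regions these shares were 82.4% and 74.6%, so the P0 share of the P14-only regions was that of all regions. Regions with a peak in P21 replicate 1 alone held H3K27Ac at P21 in 34.2% and H3K27me3 in 12.9%, and 16.0% had H3K4me3 in both P0 libraries. The profile of the P14-only regions was not particular to them. The 1054 regions with a peak in both P14 libraries and P21 replicate 1 held H3K27me3 at P21 in 49.7% and H3K27Ac in 8.63%. Of those, 98.1% had an H3K4me3 peak at P12 and 79.9% in both P0 libraries.

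By the mean log2 scaled height of the P21 libraries, chr13:83712519-83714314 ranked first among the P21-only regions. Its fold enrichment was 14.98 and 7.63 in P21 replicates 1 and 2 and its width 1796 and 802 bp, and no wild-type list of P0, P12 or P14 had a peak there. At chr14:57854681-57855723 the fold enrichment was 15.3 and 7.36, and at chr6:146284544-146286327 it was 17.4 and 5.72. All 3 had H3K27Ac in both P21 libraries and not in both P14 libraries, and the first had H3K27me3 in both libraries at P14 and not in both at P21. By the mean log2 scaled height of the P14 libraries, the first P14-only region was chr6:47708076-47708470. It had a fold enrichment of 11.4 and 6.91 in P14 replicates 2 and 3 and of 10.5 at P12. It was narrow, at 364 and 241 bp, and had neither H3K27Ac nor H3K27me3 in any library of P14 or P21. The next, chr4:88406276-88406605, also had neither mark, with a fold enrichment of 6.97 and 7.64 at P14. The one after, chr5:67613770-67614235, had 7.39 and 6.94 at P14 and carried H3K27me3 in both libraries at both stages.

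**Figure D5:**
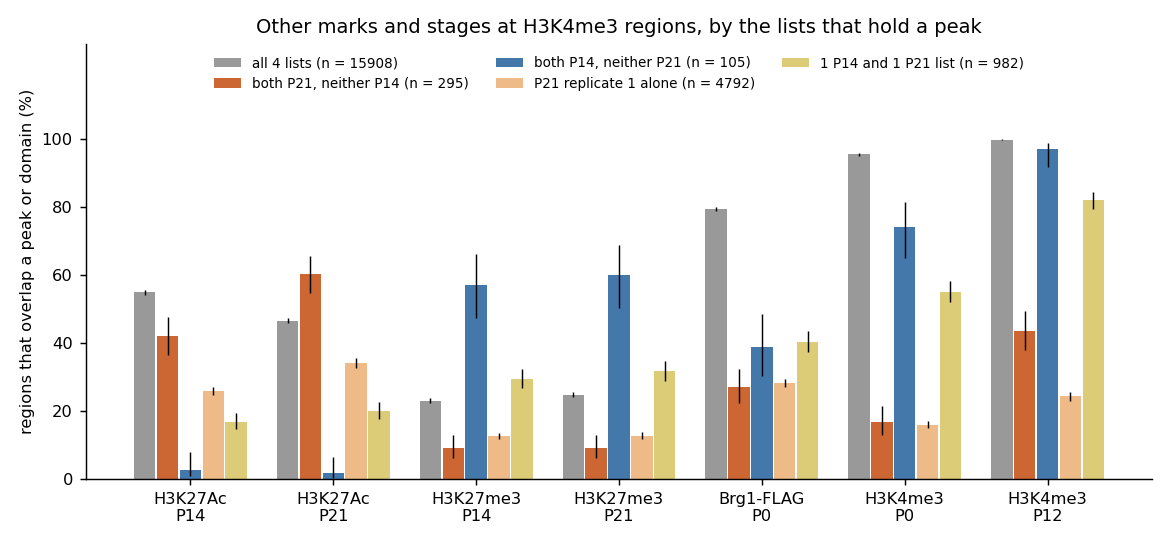
Percentage of H3K4me3 regions that overlap H3K27Ac, H3K27me3 or H3K4me3 in both libraries of a stage, the 1 Brg1-FLAG library or the 1 P12 library, grouped by the P14 and P21 lists that hold a peak. Error bars are Wilson 95% intervals, and the P14-only regions reach 60% for H3K27me3 at P21, compared with 9.15% of the P21-only regions.

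H3K27Ac heights were read at the same regions. At the 6985 shared regions with H3K27Ac in all 4 of its P14 and P21 lists, scaled H3K27Ac height differed between the stages by a median of 0.03. It differed by 0.31 (0.18 to 0.42 in the H3K27Ac library pairs) at the 1368 of them where H3K4me3 was higher in both P21 libraries, and by -0.28 (-0.38 to -0.17) at the 968 where it was lower. Across these regions the stage differences of the 2 marks had Pearson's r = 0.49 and Spearman's rho = 0.48. The replicate differences of the marks were correlated too, with r = 0.50 between the P14 libraries and 0.25 between the P21 libraries. For P14, H3K4me3 replicate 2 minus 3 was set against H3K27Ac replicate 1 minus 2. The sign of that value therefore rests on the order of the lists. For these regions the H3K4me3 stage difference of 1 pair of libraries was not related to that of the other pair (r = 0.05 and -0.0025). For H3K27Ac these values had both signs (r = 0.14 and -0.19). A stage difference and a difference between samples that both marks share cannot be told apart with 2 libraries a stage.

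The broadest regions had like widths at both stages. By mean log2 width the widest region was chr7:16455896-16472638. It covered 14545 and 15934 bp at P14 and 16598 and 15691 bp at P21. At P0 it covered 4346 and 5583 bp, and at P12 14787 bp. At chr6:30115297-30131033 the width was 14465 and 15019 bp at P14 and 15658 and 14632 bp at P21, and at chr14:65197928-65214603 it was 12945 and 14875 bp at P14 and 16516 and 14052 bp at P21. All 3 had H3K27Ac in both libraries at both stages and Brg1-FLAG at P0, and none had H3K27me3 in both libraries at P14 or P21. The second had H3K27me3 in 1 of 2 libraries at each of these stages, and the second and the third had it in both libraries at P0. The 796 widest regions (5% of the shared) had a median width difference of -0.02, and the pairs had both signs (-0.08 to 0.06). By mean log2 scaled height over the 4 libraries, chr4:116298766-116301018 ranked first, with a fold enrichment of 71.1 and 68.3 at P14 and 85.4 and 64.1 at P21, although each library had a taller peak elsewhere. The next were chr7:129209717-129212358, with 67.5 and 78.0 at P14 and 99.8 and 41.9 at P21, and chr1:108691963-108693947, with 46.9 and 76.4 at P14 and 83.8 and 70.1 at P21. All 3 had H3K27Ac at both stages and no H3K27me3 in any library.

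On the sex chromosomes, all 3 shared regions on the Y chromosome were higher and wider in both P21 libraries, and none was called. At chrY:621681-623396 the fold enrichment was 5.69 and 6.42 at P14 and 20.1 and 10.3 at P21 (log2 difference 1.14, SE 0.41, adjusted p = 0.351, limma). It was 15.9 and 21.9 at P0 and 12.02 at P12. At chrY:346209-347828 the values were 7.18 and 4.70 at P14 and 16.1 and 8.17 at P21, and at chrY:580974-582627 they were 7.39 and 7.89 at P14 and 17.4 and 10.1 at P21. The median log2 scaled height of the 3 Y regions was -1.12 and -0.74 at P0, -2.01 at P12, -2.04 and -2.23 at P14, and -1.61 and -1.005 at P21. The 517 X regions had a median difference of -0.18, compared with -0.05 on the autosomes, but the library pairs ran from -0.53 to 0.18. The sex of the animals is not given in the labels used here.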

How the data were processed

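The authors deposited 1 list of peaks per library, in a layout like narrowPeak, and, for H3K27me3, as domains whose files are named for SICER. The submitters' processing notes name BWA 0.5.9-r26, Picard 1.65, SAMtools, MACS2 2.0.9, SICER 1.1 and bedtools 2.17.0 and the mm9 build. The heights used here are the deposited fold enrichment, a ratio to background, and the deposited −log10 q-value served as an alternative. Reads per library are unknown.

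Lists were merged on an overlap of at least 1 bp in pandas 2.3.3 and numpy 2.4.6 under Python 3.11.15. P14 titles were followed (2 and 3) although the lists carry other numbers. limma 3.58.1 in R 4.3.3 (lmFit, eBayes, Benjamini-Hochberg at 0.05) was fitted to log2 height and width, each scaled on the library's median, over regions with a peak in all 4 lists. Widths were scaled like heights. The code was tested on simulated data. Wilson intervals came from scipy 1.17.1. Alternatives were no scaling, quantile normalisation, regions in at least 2 lists with an added constant, added P0 libraries, peaks up to 500 bp apart merged, equal numbers of peaks, −log10 q as height, span as width, trended and robust spread, and leaving out each library.

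Named were, for height and width, the 5 regions of smallest p in each direction (2 of them called), and by mean log2 scaled height or mean log2 width the 3 highest of each stage-only set, the 3 tallest and the 3 widest regions. The Y regions are outside this rule and were named after their values were seen. The regions, classes and rules were chosen with earlier results of these data known. P-values measure only the spread between these libraries. P12 H3K27Ac and the Brg1-deficient H3K4me3 and H3K27Ac lists entered only the counts of merged regions over the series, and P12 H3K27me3 was not used here.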

Additional observations from a re-analysis of the deposited data

How the results depend on the processing

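No paired analysis was possible because the P14 and P21 libraries share only replicate number 2. Of height calls (2 with all choices as described), 0 were left with regions in at least 2 lists (either constant added), with a trended and robust spread, with −log10 q as height, without scaling, after quantile normalisation and in all 4 fits that left out a library (0 to 0), in which the lone library of a stage was assumed to vary like the others. With the P0 libraries in the fit 7 were called, all lower. Width calls (0) rose to 354 with regions in at least 2 lists and 1 added, where absent peaks count as a width of 0, to 18 with a trended and robust spread, and to 1 with equal numbers of peaks, without scaling and with the span as width, and were 0 in fits that left out a library. P21-only regions numbered 88 among the strongest 50% of peaks, 193 with peaks up to 500 bp apart merged, and 341 to 5087 without 1 library. P14-only regions numbered 227 with equal numbers of peaks, 22 among the strongest 50%, and 135 to 1159 without 1 library. With a mark counted in either library, H3K27Ac was at 91.4% of shared regions at P14 and 84.6% at P21, and H3K27me3 at 30.9% and 29.0%. With coverage of at least 50% required, H3K27me3 was at 22.4% and 24.2%. The cause of these changes was not tested beyond what their construction shows. None of the named rises and falls in height or width changed direction under any alternative that could be computed for it. Relative to all regions, the height difference of the class with H3K27me3 and no H3K27Ac stayed lower in all 13 alternatives (-0.48 to -0.11). That of the regions without H3K4me3 at P0 stayed higher in the 12 that could hold them (0.38 to 0.80). The 0.80 was with −log10 q as height, which is another scale. With fold enrichment as height the largest value was 0.53, after quantile normalisation. For width the ranges were -0.30 to -0.10 and 0.16 to 0.69. Among the alternatives, the trended and robust spread leaves every difference as it was, and leaving out scaling shifts all regions alike. Neither could change a value relative to all regions.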
